A study of Homo sapiens with 24 samples.

Results

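Luminal keratins and prostate secretory markers were followed in 2 androgen-responsive human prostate cancer lines through 8 genes: the keratins KRT8, KRT18 and KRT19, the surface protein CD24, and the secretory genes ACP3, MSMB, TGM4 and AZGP1. They were chosen by name as markers of the luminal layer, with earlier results of these data known. The shares of all genes beside their counts are therefore a description and no test of the set. The members are 8 of the 19775 genes that the Affymetrix HG-U133 Plus 2.0 array measured here. Together they had 19 probe sets that named a single gene: 6 for CD24, 3 each for ACP3 and TGM4, 2 each for KRT19 and MSMB, and 1 each for KRT8, KRT18 and AZGP1. In LNCaP cells, which carry a rearranged ETV1, that gene was targeted by an shRNA, a hairpin that is processed into interfering RNA (shETV1), with shControl as its control. In VCaP cells, which carry a TMPRSS2-ERG fusion, the fused gene was targeted by a transfected siRNA (siERG), with siControl as its control. After 24 h of RNA interference all cells spent 2 days without hormone and then 16 h with 10 nM dihydrotestosterone (DHT), the most active natural androgen, or with its vehicle ethanol (EtOH). The 8 groups were thus shETV1 with DHT, shControl with DHT, shETV1 with EtOH and shControl with EtOH in LNCaP, and siERG with DHT, siControl with DHT, siERG with EtOH and siControl with EtOH in VCaP, with 3 arrays each, described as biological replicates A, B and C. Whether these came from separate cultures is not stated, so p-values measure the spread between these samples. One label field of the LNCaP control samples reads siControl where their titles read shControl. Each line is a single tumour-derived culture, and both knockdowns were partial.

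The prostate gland is lined by tall luminal cells that rest on a basal layer and secrete into the lumen. Luminal cells build their intermediate filaments from pairs of simple-epithelial keratins, a type II keratin such as KRT8 with a type I keratin such as KRT18 or KRT19, whereas basal cells use KRT5 and KRT14. Their secretory products depend on androgen acting through the androgen receptor. ETS-family transcription factors, among them ERG and ETV1, bind DNA around a GGAA core, and gene fusions switch some of them on in many prostate cancers.

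The promoters of 4 members that changed with a knockdown are shown because ETS factors bind GGAA, written TTCC where it lies on the opposite strand. Each window runs from 250 bases before to 50 bases after the gene's start in RefSeq on GRCh38.p14, 5′ to 3′ along the gene, and capitals mark every GGAA or TTCC. TGM4 (chr3:44874358-44874657, plus strand) and ACP3 (chr3:132317157-132317456, plus strand) held 7 such cores each, KRT8 (chr12:52926420-52926719, minus strand) 3, and AZGP1 (chr7:99975982-99976281, minus strand) 1.

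TGM4: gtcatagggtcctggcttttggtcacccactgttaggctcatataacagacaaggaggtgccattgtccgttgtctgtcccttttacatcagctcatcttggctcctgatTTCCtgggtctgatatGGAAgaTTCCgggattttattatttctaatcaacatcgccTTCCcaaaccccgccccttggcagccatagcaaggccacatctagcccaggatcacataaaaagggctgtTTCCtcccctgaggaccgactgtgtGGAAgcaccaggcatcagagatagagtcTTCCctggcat

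ACP3: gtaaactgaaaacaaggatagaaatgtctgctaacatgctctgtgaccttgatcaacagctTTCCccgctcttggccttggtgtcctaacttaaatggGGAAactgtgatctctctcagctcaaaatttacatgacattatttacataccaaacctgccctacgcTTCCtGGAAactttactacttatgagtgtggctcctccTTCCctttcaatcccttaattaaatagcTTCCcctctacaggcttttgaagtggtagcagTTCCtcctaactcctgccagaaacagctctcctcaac

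KRT8: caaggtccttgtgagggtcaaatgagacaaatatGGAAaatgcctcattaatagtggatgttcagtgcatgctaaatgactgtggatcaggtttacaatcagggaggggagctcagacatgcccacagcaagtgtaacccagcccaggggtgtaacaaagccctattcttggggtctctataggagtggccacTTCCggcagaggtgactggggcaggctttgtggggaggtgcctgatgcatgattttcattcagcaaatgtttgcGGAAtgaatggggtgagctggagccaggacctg

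AZGP1: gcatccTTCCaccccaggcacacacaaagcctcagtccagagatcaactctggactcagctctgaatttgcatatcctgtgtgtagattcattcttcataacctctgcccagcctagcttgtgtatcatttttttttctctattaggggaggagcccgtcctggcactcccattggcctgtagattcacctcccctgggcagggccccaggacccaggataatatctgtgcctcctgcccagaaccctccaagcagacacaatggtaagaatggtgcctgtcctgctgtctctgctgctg

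A GGAA on either strand is common: 95.5% of 35116 RefSeq windows of this length hold it, with a mean of 3.51 per window, and 8.29% hold 7 or more while 16.2% hold 1 or none. The longer ETS motif CCGGAAG, or CTTCCGG on the opposite strand, contains the core and was found in 10.3% of all windows. Of the 4 windows shown only that of KRT8 has it, as 1 match, at the second of its 3 cores. The androgen receptor half-site AGAACA, or TGTTCT on the opposite strand, occurs in 14.8% of all windows and in 0 of these 4. CD24, which also changed with a knockdown, has 3 windows in the table that are not printed: they hold 2, 1 and 4 cores, and the second has 1 half-site. These matches describe the letters of the windows and do not show binding. KRT18, KRT19 and MSMB are named only.

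Changes are given as log2 of the intensity plus 16, with the standard error of limma, a linear model fitted per line over all genes tested, and n = 3 arrays per group throughout. A gene rose or fell when its Benjamini-Hochberg adjusted p over all genes tested, 12823 in LNCaP and 12840 in VCaP, was below 0.05. Genes were tested where they lay above the array median on at least 3 of the 12 arrays of a line. All 8 members passed this filter in VCaP and 6 in LNCaP, where MSMB and TGM4 stayed below it. Array medians lay at 42.7 to 44.8 in LNCaP and 47.6 to 53.2 in VCaP, and the scaling of the arrays was not stated in any source at hand, so intensities were compared within a line only. ETV1 itself fell by 0.62 ± 0.07 in shETV1 cells with DHT (limma, adjusted p = 4.70e-04) and by 0.61 ± 0.07 with EtOH (adjusted p = 4.91e-04), which leaves it 35.1% and 34.5% lower. ERG fell by 1.09 ± 0.06 in siERG cells with DHT (adjusted p = 2.22e-06) and by 0.82 ± 0.06 with EtOH (adjusted p = 1.83e-05), which leaves it 53.1% and 43.3% lower. ETV1 read higher in these siERG cells, by 0.72 ± 0.40 with DHT and 0.80 ± 0.40 with EtOH, which did not pass (limma, adjusted p = 0.33 and 0.239). With EtOH its intensities were 890 to 1046 in siERG and 460 to 707 in siControl arrays. Both lines carried the luminal pattern: the keratins KRT8 and KRT18 lay at or above the 95.4th percentile of every array, and the prostate-specific antigen gene KLK3 at or above the 86.9th. The basal keratins KRT5 and KRT14 lay below the median of every array.

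DHT raised all 3 keratins in both lines. In LNCaP shControl cells 5 of the 6 members tested rose with DHT and 1 fell, where 40.8% of all genes tested changed (18.6% rose and 22.3% fell). In shETV1 cells 4 rose and 1 fell, where 37.9% changed (18.8% rose and 19% fell). In VCaP siControl cells 4 of the 8 rose and 2 fell, where 45% of all genes changed (19.6% rose and 25.4% fell). In siERG cells 4 rose and 2 fell, where 45.3% changed (20.1% rose and 25.2% fell). KRT8, KRT18, KRT19 and AZGP1 rose in each of these 4 comparisons. KRT19 passed the filter in LNCaP through its DHT arrays only, so its place among the 6 there rests on them. With this much of the array moving, the count itself says little, and the size and direction of each gene's change carry the description. In such bulk samples, fewer cells that express a gene and less of its RNA per cell cannot be told apart.

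**Figure D1:**
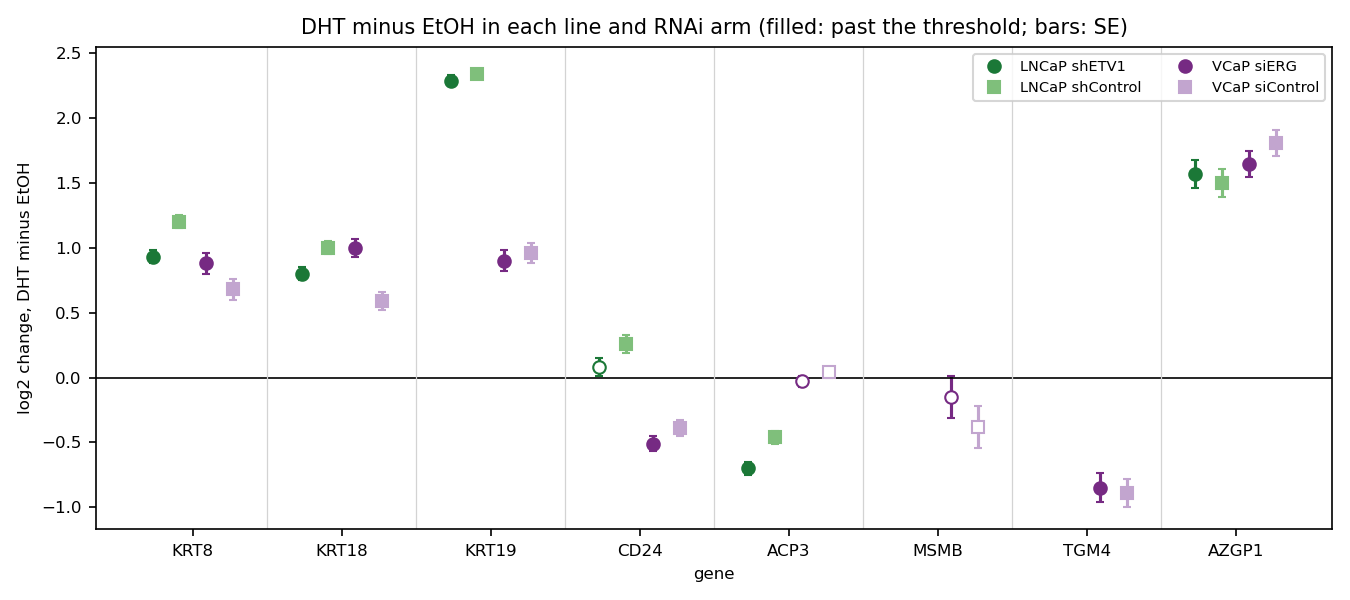
Log2 change of each member, DHT minus EtOH, in LNCaP (green) and VCaP (purple), with knockdown cells as circles and control cells as squares. Error bars are standard errors, and filled symbols passed an adjusted p of 0.05. KRT8, KRT18, KRT19 and AZGP1 lie above 0 in all 4 comparisons, and CD24 lies on opposite sides of 0 in the 2 lines. MSMB and TGM4 were not tested in LNCaP.

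KRT8, the type II keratin of luminal cells, had intensities of 4733, 4400 and 4806 in shETV1 LNCaP cells with DHT, against 5894, 5617 and 5970 in shControl cells with DHT. With EtOH it had 2346, 2485 and 2477 in shETV1 cells, against 2445, 2607 and 2510 in shControl cells. All 6 DHT arrays thus lay above all 6 EtOH arrays, and with DHT the shETV1 arrays lay below the shControl arrays without overlap, while with EtOH these groups overlapped. DHT raised KRT8 by 0.93 ± 0.05 in shETV1 cells (limma, adjusted p = 7.41e-08) and by 1.20 ± 0.05 in shControl cells (adjusted p = 8.09e-09). ETV1 knockdown lowered it with DHT by 0.33 ± 0.05 (adjusted p = 0.00352), and the change with EtOH was -0.05 ± 0.05 (adjusted p = 0.651, 95% interval -0.16 to 0.06). The difference between these knockdown effects, -0.28 ± 0.07, did not pass (adjusted p = 0.255).

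In VCaP, KRT8 had intensities of 4213, 3970 and 3676 in siERG cells with DHT, against 4517, 3776 and 4702 in siControl cells with DHT. With EtOH it had 2117, 2188 and 2087 in siERG cells, against 2657, 2736 and 2639 in siControl cells. Here the knockdown and control groups were apart with EtOH and overlapped with DHT. DHT raised KRT8 by 0.88 ± 0.08 in siERG cells (limma, adjusted p = 6.21e-06) and by 0.68 ± 0.08 in siControl cells (adjusted p = 4.20e-05). ERG knockdown lowered it with EtOH by 0.33 ± 0.08 (adjusted p = 0.0238), and with DHT the change was -0.13 ± 0.08 (adjusted p = 0.381). The difference between these knockdown effects, 0.20 ± 0.11, did not pass (adjusted p = 0.552). The fall with EtOH was lost without the filter on dim genes (adjusted p = 0.0511), in 6 of the fits that leave out 1 array, all of the 2 groups compared (adjusted p 0.0563 to 0.078), and when a measure of RNA integrity, the ratio of 3′ to 5′ GAPDH signal, entered the fit (-0.24 ± 0.12, adjusted p = 0.39). With EtOH the ratio averaged 1.09 ± 0.024 in siERG arrays, against 1.05 ± 0.013 in siControl arrays (SD), and its part in the result was not tested beyond this fit. With DHT the ratio was 1.03 ± 0.007 in siERG arrays, against 1.07 ± 0.008 in siControl arrays, so that it lay lower in siERG arrays with DHT than in either group with EtOH. The calls of members after siERG with DHT and with DHT in siERG cells were kept with the ratio in the fit. In each condition the ratios of siERG and siControl arrays did not overlap, so this fit cannot tell it well apart from the knockdown. A second such ratio, of the actin gene ACTB, ran from 2.49 to 3.56 and was in no fit. With DHT it averaged 2.84 ± 0.31 in siERG and 3.5 ± 0.06 in siControl arrays, without overlap. With EtOH it averaged 3.05 ± 0.45 and 3.31 ± 0.32 (SD).

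KRT18, the type I partner of KRT8, lies beside it on chromosome 12 with 0 protein-coding genes between them. Its VCaP intensities were 7871, 7645 and 6490 in siERG cells with DHT, against 8214, 7711 and 8250 in siControl cells with DHT. With EtOH they were 3535, 3699 and 3717 in siERG cells, against 5408, 5488 and 5168 in siControl cells, so that the siERG arrays were the 3 lowest of the line. ERG knockdown lowered KRT18 with EtOH by 0.55 ± 0.07 (limma, adjusted p = 7.61e-04), and with DHT the change was -0.14 ± 0.07 (adjusted p = 0.264). DHT raised it by 1 ± 0.07 in siERG cells (adjusted p = 9.75e-07) and by 0.59 ± 0.07 in siControl cells (adjusted p = 5.04e-05), a difference of 0.41 ± 0.10 that did not pass (adjusted p = 0.144). It passed in 1 fit of all 24 arrays (adjusted p = 0.0316) and without siERG DHT replicate C, the lowest of its group (0.50 ± 0.06, adjusted p = 0.0212).

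In LNCaP, KRT18 intensities were 8655, 8086 and 8693 in shETV1 cells with DHT, against 9834, 9435 and 9670 in shControl cells with DHT. With EtOH they were 4811, 4798 and 4940 in shETV1 cells, against 4546, 5212 and 4704 in shControl cells. The groups were apart with DHT only. DHT raised KRT18 by 0.80 ± 0.05 in shETV1 cells (limma, adjusted p = 5.80e-07) and by 1 ± 0.05 in shControl cells (adjusted p = 8.61e-08). ETV1 knockdown changed it by -0.19 ± 0.05 with DHT (adjusted p = 0.0762, but 0.04 without shControl EtOH replicate B, 0.04 with arrays centred on their median and 0.0119 with trend and robust variances) and by 0.01 ± 0.05 with EtOH (adjusted p = 0.941, 95% interval -0.11 to 0.13). KRT8 and KRT18 each rest on a single probe set ending in _x_at, a class that can bind related transcripts, and both families have pseudogenes, so a part of their signal may come from other transcripts.

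KRT19, a type I keratin that has no tail domain, was the keratin with the widest DHT response in LNCaP. It had intensities of 158, 167 and 163 in shETV1 cells with DHT, against 166, 166 and 157 in shControl cells with DHT. In vehicle it had 21.3, 20.7 and 19.9 in shETV1 cells, against 20.4, 18.6 and 19.2 in shControl cells. The EtOH arrays thus sat at the 29.5th to 33.2nd percentile of their arrays and the DHT arrays at the 69.1st to 70.5th. KRT19 therefore passed the filter in LNCaP through its DHT arrays only, and its calls with DHT were kept without the filter. Knockdown and control arrays overlapped in both conditions. DHT raised it by 2.29 ± 0.04 in shETV1 cells (limma, adjusted p = 2.76e-11) and by 2.34 ± 0.04 in shControl cells (adjusted p = 2.74e-11), or 4.87-fold and 5.06-fold on the scale of intensity plus 16, which understates the change of a gene this dim. With 64 added in place of 16 the changes were 1.42 and 1.44. ETV1 knockdown changed it by 0.00 ± 0.04 with DHT (adjusted p = 0.985, 95% interval -0.09 to 0.09) and by 0.05 ± 0.04 with EtOH (adjusted p = 0.563).

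In VCaP, KRT19 had 350, 338 and 303 in siERG cells with DHT, against 316, 269 and 299 in siControl cells with DHT. With vehicle its values were 159, 178 and 170 in siERG cells, against 151, 150 and 131 in siControl cells. Every DHT array lay above every EtOH array, and the knockdown arrays lay above the control arrays with EtOH but not with DHT. DHT raised KRT19 by 0.90 ± 0.08 in siERG cells (limma, adjusted p = 5.49e-06) and by 0.96 ± 0.08 in siControl cells (adjusted p = 3.66e-06). The knockdown differences of 0.16 ± 0.08 with DHT and 0.21 ± 0.08 with EtOH did not pass (adjusted p = 0.269 and 0.116). The second KRT19 probe set read between 1.04 and 9.21 on all 24 arrays and was not tested. Averaging it with the first lowered the DHT changes to 1.17 and 1.32 in LNCaP shETV1 and shControl cells and to 0.36 and 0.48 in VCaP siERG and siControl cells, all still past the threshold, and gave -0.21 ± 0.04 for ETV1 knockdown with DHT (adjusted p = 0.0163).

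**Figure D2:**
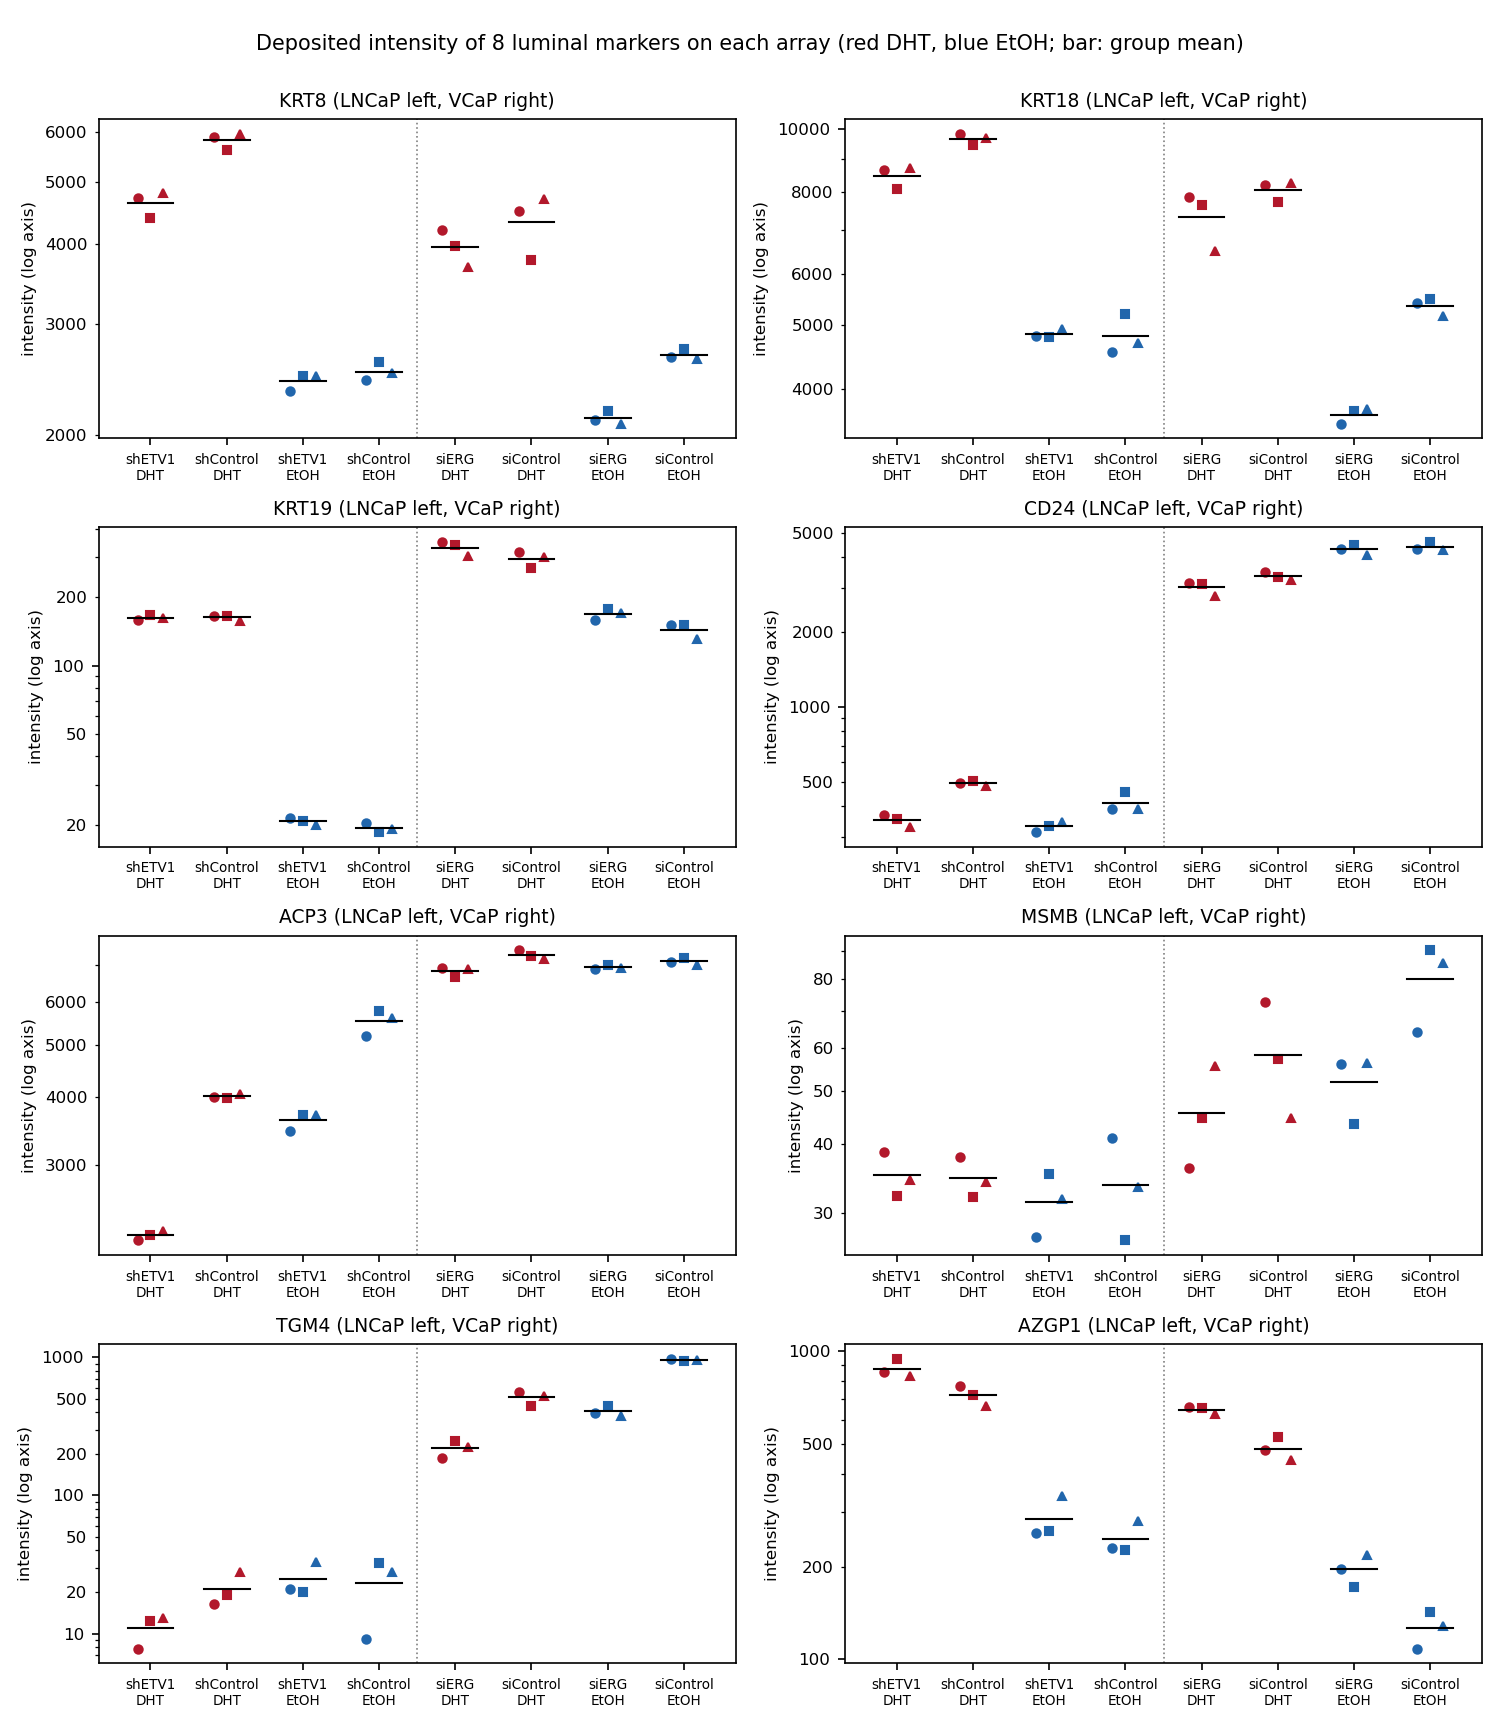
Deposited intensity of each member's brightest probe set on all 24 arrays, on log axes, with LNCaP groups left and VCaP groups right of the dotted line. Circles, squares and triangles are replicates A, B and C, red is DHT, blue is EtOH, and bars are group means. KRT19 in LNCaP lies near 20 with EtOH and near 160 with DHT, and TGM4 in VCaP ranges between 187 and 977.

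CD24, a small lipid-anchored surface glycoprotein of epithelial cells, went in opposite directions with DHT in the 2 lines. In LNCaP it had intensities of 371, 357 and 332 in shETV1 cells with DHT, against 498, 506 and 482 in shControl cells with DHT. With vehicle it read 315, 335 and 347 in shETV1 cells, against 389, 455 and 392 in shControl cells. The shETV1 arrays lay below the shControl arrays in both conditions without overlap. DHT raised CD24 by 0.26 ± 0.07 in shControl cells (limma, adjusted p = 0.00861), and in shETV1 cells the change was 0.08 ± 0.07 (adjusted p = 0.367). ETV1 knockdown lowered it by 0.47 ± 0.07 with DHT (adjusted p = 0.00255) and by 0.29 ± 0.07 with EtOH (adjusted p = 0.0335). The fall with EtOH did not hold without the filter on dim genes (adjusted p = 0.0842), with only the 2 groups in the fit (adjusted p = 0.121), or with GAPDH integrity in the fit (adjusted p = 0.205). It was also lost when any 1 of 6 arrays was left out (shControl EtOH A or B, shETV1 EtOH A, B or C, or shControl DHT A, adjusted p 0.0505 to 0.116). GAPDH ratios were 1.07 ± 0.021 in shETV1 and 1.11 ± 0.025 in shControl arrays with EtOH, and 1.08 ± 0.009 in shETV1 and 1.09 ± 0.003 in shControl arrays with DHT (SD).

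In VCaP, CD24 had 3148, 3117 and 2780 in siERG cells with DHT, against 3469, 3329 and 3244 in siControl cells with DHT. In EtOH the values were 4316, 4469 and 4066 in siERG cells, against 4305, 4591 and 4249 in siControl cells. All DHT arrays were below all EtOH arrays. DHT lowered CD24 by 0.51 ± 0.06 in siERG cells (limma, adjusted p = 5.71e-05) and by 0.39 ± 0.06 in siControl cells (adjusted p = 3.87e-04), and ERG knockdown changed it by -0.15 ± 0.06 with DHT (adjusted p = 0.162) and by -0.03 ± 0.06 with EtOH (adjusted p = 0.788). Within its own array CD24 stood at the 77.7th to 83.1st percentile in LNCaP and at the 96.9th to 98.4th in VCaP.

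All 6 CD24 probe sets showed the split between lines. In a fit of all probe sets, in which 36.4% changed with DHT in LNCaP shControl cells, 4 of the 6 rose there, with changes between 0.10 and 0.32. In shETV1 cells, where 33.5% changed, the 6 changes lay between 0.06 and 0.25 and did not pass. In VCaP siControl cells, where 39% of probe sets changed, 5 of the 6 fell, with changes between -0.40 and -0.13. The difference of the DHT response, LNCaP minus VCaP, was positive for all 6, between 0.38 and 0.72, where 27.7% of probe sets differed. ETV1 knockdown lowered 4 of the 6 with DHT (4.44% of probe sets changed) and 3 of the 6 with EtOH (2.66% changed). These 6 probe sets share a target and are not independent, and 3 of them end in _x_at.

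**Figure D3:**
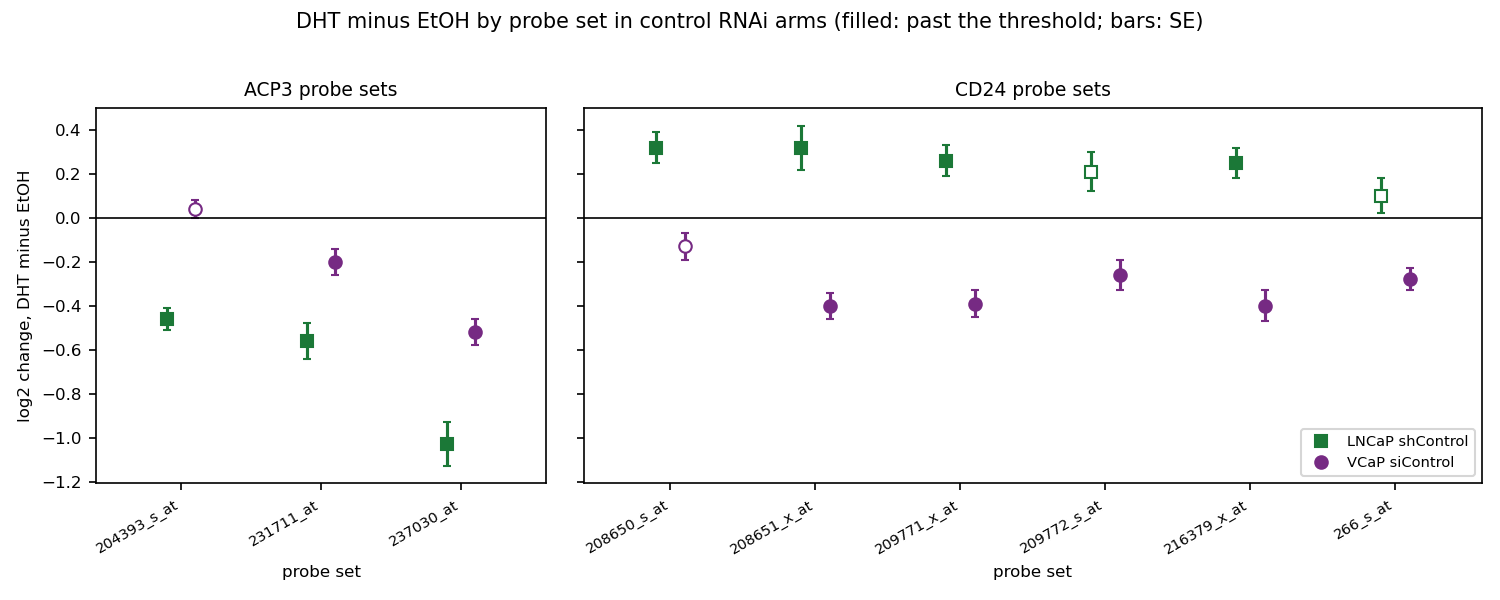
Log2 change, DHT minus EtOH, in the control cells of LNCaP (squares) and VCaP (circles) for each probe set of ACP3 and CD24, with standard errors and filled symbols where the change passed. For CD24 the LNCaP values lie between 0.10 and 0.32 and the VCaP values between -0.40 and -0.13. For ACP3 the 3 probe sets differ in size within each line.

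ACP3 encodes prostatic acid phosphatase, a secreted and membrane-bound enzyme that is a classic marker of luminal cells. In LNCaP it had intensities of 2173, 2220 and 2265 in shETV1 cells with DHT, against 4007, 3987 and 4044 in shControl cells with DHT. In vehicle the values were 3461, 3709 and 3698 in shETV1 cells, against 5175, 5779 and 5592 in shControl cells. The 4 groups were in separate ranges, highest in shControl cells with EtOH, then shControl with DHT, shETV1 with EtOH and shETV1 with DHT. Both the androgen and the knockdown lowered it. ETV1 knockdown lowered ACP3 by 0.85 ± 0.05 with DHT (limma, adjusted p = 6.18e-06), or to 0.55 of the control, and by 0.60 ± 0.05 with EtOH (adjusted p = 4.85e-05). DHT lowered it by 0.70 ± 0.05 in shETV1 cells (adjusted p = 7.06e-07) and by 0.46 ± 0.05 in shControl cells (adjusted p = 2.03e-05). The interaction of -0.25 ± 0.07 did not pass (adjusted p = 0.324).

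In VCaP, ACP3 had 6929, 6658 and 6891 in siERG cells with DHT, against 7467, 7273 and 7203 in siControl cells with DHT. With EtOH the values were 6907, 7002 and 6937 in siERG cells, against 7112, 7237 and 7018 in siControl cells. The siERG arrays were lower in each condition without overlap, by differences of -0.10 ± 0.04 with DHT and -0.04 ± 0.04 with EtOH that did not pass (limma, adjusted p = 0.128 and 0.593). The DHT changes of -0.03 ± 0.04 in siERG cells and 0.04 ± 0.04 in siControl cells did not pass either (adjusted p = 0.602 and 0.428, with a 95% interval of -0.04 to 0.12 for siControl cells). This brightest probe set lay at the 99.1st to 99.2nd percentile of every VCaP array, and whether signals this high still respond in proportion was not tested. The other 2 probe sets, at 285 to 529, gave another answer for VCaP: with DHT in siControl cells one fell by 0.20 ± 0.06 (adjusted p = 0.032) and the other by 0.52 ± 0.06 (adjusted p = 1.10e-04). In siERG cells this last one fell by 0.50 ± 0.06 (adjusted p = 1.43e-04), where 38.4% of probe sets changed with DHT. The mean over the 3 probe sets fell by 0.22 ± 0.04 in siERG cells (adjusted p = 0.00199) and by 0.23 ± 0.04 in siControl cells (adjusted p = 0.00184). In LNCaP all 3 fell with DHT in both arms, where 33.5% of probe sets changed in shETV1 and 36.4% in shControl cells. ETV1 knockdown lowered 2 of the 3 in each condition, where 4.44% changed with DHT and 2.66% with EtOH. The remaining one, with -0.31 with DHT and -0.40 with EtOH, did not pass.

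TGM4, the prostate transglutaminase that crosslinks seminal proteins in rodents, was the member with the largest knockdown effect in VCaP. It had 187, 249 and 222 in siERG cells with DHT, against 562, 445 and 528 in siControl cells with DHT. With EtOH it had 393, 445 and 378 in siERG cells, against 977, 938 and 957 in siControl cells. The siControl arrays with EtOH were highest and the siERG arrays with DHT lowest, and the other 2 groups met at 445. ERG knockdown lowered TGM4 by 1.17 ± 0.11 with DHT (limma, adjusted p = 8.74e-05) and by 1.21 ± 0.11 with EtOH (adjusted p = 9.19e-05), to 0.45 and 0.43 of the control. DHT lowered it by 0.85 ± 0.11 in siERG cells (adjusted p = 8.62e-05) and by 0.89 ± 0.11 in siControl cells (adjusted p = 6.15e-05). The interaction was 0.04 ± 0.15 (adjusted p = 0.946, 95% interval -0.29 to 0.38). A second probe set, at 54.1 to 152, fell with DHT in both arms, by 0.45 ± 0.14 and 0.48 ± 0.14, but its knockdown differences of -0.43 with DHT and -0.46 with EtOH did not pass, where 6.57% and 9.12% of probe sets changed. The third read 3.52 to 23.5 in VCaP and was not tested. Averaged over all 3 probe sets, the knockdown lowered TGM4 by 0.52 ± 0.09 with DHT (adjusted p = 0.00696) and by 0.42 ± 0.09 with EtOH (adjusted p = 0.0197), and DHT lowered it by 0.52 in siERG and by 0.41 in siControl cells. In LNCaP the brightest TGM4 probe set read 7.76 to 32.8, below the array median throughout.

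AZGP1 encodes zinc-alpha-2-glycoprotein, a secreted protein of seminal fluid. Its VCaP intensities were 660, 654 and 628 in siERG cells with DHT, against 477, 527 and 443 in siControl cells with DHT. With EtOH they were 197, 172 and 219 in siERG cells, against 108, 142 and 128 in siControl cells. The 4 groups did not overlap, and siERG was the higher one in each condition. AZGP1 was the only member that rose with ERG knockdown, by 0.42 ± 0.10 with DHT (limma, adjusted p = 0.0292) and by 0.58 ± 0.10 with EtOH (adjusted p = 0.00516). DHT raised it by 1.65 ± 0.10 in siERG cells (adjusted p = 4.36e-07) and by 1.81 ± 0.10 in siControl cells (adjusted p = 2.20e-07). The knockdown rise with DHT was lost without the filter on dim genes (adjusted p = 0.0618) and without siControl DHT replicate A or C or siERG DHT replicate A or B (adjusted p 0.0813 to 0.107). The rise with EtOH was lost with GAPDH integrity in the fit (0.35 ± 0.13, adjusted p = 0.232), while that with DHT was then 0.66 (adjusted p = 0.0446).

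In LNCaP, AZGP1 had 855, 947 and 833 in shETV1 cells with DHT, against 773, 722 and 667 in shControl cells with DHT. With EtOH it had 258, 261 and 340 in shETV1 cells, against 230, 226 and 281 in shControl cells. DHT arrays were all above EtOH arrays, and shETV1 arrays were above shControl arrays with DHT only. DHT raised it by 1.57 ± 0.11 in shETV1 cells (limma, adjusted p = 1.02e-06) and by 1.5 ± 0.11 in shControl cells (adjusted p = 1.36e-06), and ETV1 knockdown changed it by 0.28 ± 0.11 with DHT (adjusted p = 0.193) and by 0.20 ± 0.11 with EtOH (adjusted p = 0.382). One further probe set named both AZGP1 and AZGP1P1 and was not used.

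MSMB encodes beta-microseminoprotein, an abundant protein of normal prostatic fluid, and was dim in both lines. In VCaP it had 36.2, 44.7 and 55.6 in siERG cells with DHT, against 72.7, 57.2 and 44.8 in siControl cells with DHT. With EtOH it had 56.1, 43.6 and 56.3 in siERG cells, against 64, 90.3 and 85.6 in siControl cells. The groups were apart with EtOH only. The knockdown differences of -0.27 ± 0.16 with DHT and -0.49 ± 0.16 with EtOH did not pass (limma, adjusted p = 0.382 and 0.0803), and neither did the DHT changes of -0.15 ± 0.16 in siERG cells and -0.38 ± 0.16 in siControl cells (adjusted p = 0.492 and 0.0855). The change in siControl cells passed without siControl DHT replicate A (-0.51 ± 0.16, adjusted p = 0.0314) or siControl EtOH replicate A (-0.50 ± 0.17, adjusted p = 0.0388). In LNCaP it read 26.7 to 41.1, below the median of every array. Its second probe set was dimmer still in all 8 group means.

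**Figure D4:**
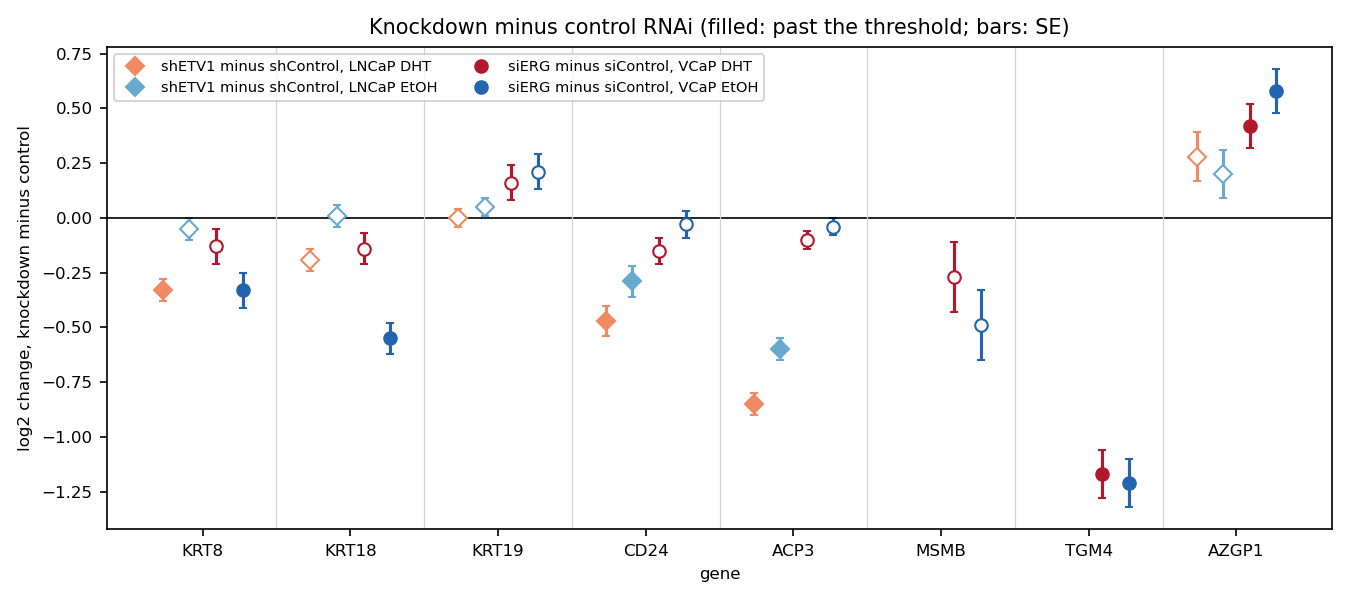
Log2 change of each member, knockdown minus control RNA interference, for ETV1 in LNCaP (diamonds) and ERG in VCaP (circles), with DHT in red tones and EtOH in blue tones. Bars are standard errors and filled symbols passed an adjusted p of 0.05. ACP3 lies at -0.85 and -0.60 in LNCaP but at -0.10 and -0.04 in VCaP, and TGM4 at -1.17 and -1.21 in VCaP.

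Counted over the members, ETV1 knockdown lowered 3 of the 6 tested with DHT (ACP3, KRT8 and CD24), where 5.19% of all genes changed (2.68% rose and 2.5% fell). With EtOH it lowered 2 (ACP3 and CD24), where 4.2% changed (1.22% rose and 2.97% fell). The rest did not pass. ERG knockdown lowered TGM4 and raised AZGP1 with DHT, 2 of 8 where 8.97% of all genes changed (3.79% rose and 5.18% fell). With EtOH it lowered TGM4, KRT18 and KRT8 and raised AZGP1, 4 of 8 where 11.2% changed (5.37% rose and 5.87% fell). The median change of the members tested was -0.26 with DHT and -0.02 with EtOH in LNCaP, against 0.02 and 0.01 over all genes, and -0.14 with DHT and -0.18 with EtOH in VCaP, against 0.02 and 0.01 over all genes. Interactions of knockdown and DHT passed for 0 of 6 members in LNCaP and 0 of 8 in VCaP in limma, where 0.101% and 0.288% of all genes passed. At an unadjusted p under 0.05 the interactions numbered 3 in LNCaP (KRT8, ACP3 and KRT18) and 1 in VCaP (KRT18), where 7.5% and 10.9% of all genes were under it.

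The change with DHT differed between the lines for 5 of the 6 members tested in both, where 31.9% of 12305 genes differed (17.6% upward and 14.3% downward). Taken as LNCaP shControl minus VCaP siControl, the difference was 1.38 ± 0.09 for KRT19 (limma over 24 arrays, adjusted p = 3.30e-10), 0.65 ± 0.09 for CD24 (adjusted p = 1.36e-05), 0.52 ± 0.09 for KRT8 (adjusted p = 2.15e-04), 0.41 ± 0.09 for KRT18 (adjusted p = 0.0011) and -0.49 ± 0.06 for ACP3 (adjusted p = 1.23e-06). All 3 keratins thus rose more in LNCaP control cells than in VCaP control cells. The DHT changes of the knockdown cells were not tested against each other. There KRT18 rose by 0.80 ± 0.05 in shETV1 and by 1 ± 0.07 in siERG cells, KRT8 by 0.93 and 0.88, and KRT19 by 2.29 and 0.90. The KRT19 difference depended on the scale, at 1.98 with 1 added to the intensity, 0.66 with 64 added and 0.84 with the mean of its probe sets, and passed in each. In LNCaP this gene passed the filter through its DHT arrays only. AZGP1, with -0.32 ± 0.16, did not pass (adjusted p = 0.139, 95% interval -0.65 to 0.01). The knockdown effects set against each other, ETV1 in LNCaP minus ERG in VCaP, differed for ACP3 with DHT (-0.75 ± 0.06, adjusted p = 8.12e-08) and with EtOH (-0.57 ± 0.06, adjusted p = 2.36e-06). They also differed for CD24 with DHT (-0.32 ± 0.09, adjusted p = 0.0333) and for KRT18 with EtOH (0.56 ± 0.09, adjusted p = 3.36e-04). These values are of the brightest probe sets, and that of ACP3 lay near the top of every VCaP array. Over the 3 probe sets of ACP3 the differences lay between -0.81 and -0.13 with DHT and between -0.59 and -0.20 with EtOH. Over the 6 of CD24 they lay between -0.49 and -0.21 with DHT. Not all of these probe sets passed. The KRT18 difference was lost with GAPDH integrity in the fit (0.44 ± 0.12, adjusted p = 0.0698). The CD24 difference was lost without the filter on dim genes (adjusted p = 0.0692), with GAPDH integrity in the fit (adjusted p = 0.0979), and without any 1 of 8 arrays (siControl DHT B or C, siERG DHT A or B, shControl DHT A or B, shETV1 DHT B or C, adjusted p 0.0513 to 0.0922). These 2 of 6 members in each condition stand beside 7.5% of all genes with DHT (4.28% upward and 3.22% downward) and 9.56% with EtOH (4.16% upward and 5.4% downward). Line, targeted factor and kind of RNA interference changed together, so they cannot be told apart in these differences.

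Other secretory products and surface antigens of the prostate, a list of 25 genes, moved in both directions. This list and those below were, like the members, chosen with earlier results of these data known. The shares of all genes beside their counts are therefore a description and no test of the lists. In LNCaP shControl cells 7 of the 17 tested rose with DHT (41.2%, against 18.6% of all genes) and 2 fell (11.8%, against 22.3%), with a median change of 0.12 against -0.01 for all genes. ORM1, an acute-phase plasma protein, rose there by 5.33 ± 0.11 and TMPRSS2, a membrane protease, by 3.04 ± 0.05, while NUCB2 fell by 0.42 ± 0.06 and FOLH1, prostate-specific membrane antigen, by 0.47 ± 0.13. In VCaP siControl cells 6 of 19 rose (31.6%, against 19.6% of all genes) and 4 fell (21.1%, against 25.4%), with a median of 0.05 against -0.03, and FOLH1 fell by 2.14 ± 0.10 while ORM1 rose by 3.64 ± 0.19. ETV1 knockdown with EtOH lowered 5 of 17 and raised 1, where 2.97% of all genes fell and 1.22% rose, among them KLK2 by 1.90 ± 0.11 and KLK3 by 1.29 ± 0.07, both kallikrein proteases of seminal fluid, while DPP4, a surface peptidase, rose by 0.51 ± 0.06. With DHT it lowered 2 and raised 1, where 2.5% fell and 2.68% rose, and KLK3 fell by 0.49 ± 0.07. ERG knockdown lowered 3 of 19 in each condition, where 5.18% of all genes fell with DHT and 5.87% with EtOH, and SLPI, a protease inhibitor of secretions, fell by 1.37 ± 0.08 with DHT and by 1.57 ± 0.08 with EtOH, as did PSCA, a surface antigen, by 0.95 ± 0.10 and 0.80 ± 0.10. It raised 3 with EtOH, where 5.37% rose, among them DPP4 by 0.41 ± 0.05.

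Partners of the keratins at desmosomes and in the cytoskeleton, a list of 15 genes, changed with DHT in both directions. In LNCaP shControl cells, where 18.6% of all genes rose and 22.3% fell, 1 of 13 tested rose with DHT (PKP3, a plakophilin, by 0.22 ± 0.07) and 4 fell, among them EPPK1, a plakin, by 0.25 ± 0.04 and DSC2, a desmosomal cadherin, by 0.22 ± 0.05. In VCaP siControl cells, where 19.6% of all genes rose and 25.4% fell, 5 of 14 rose, among them PKP2, a plakophilin, by 0.69 ± 0.08, and 4 fell, among them DSG2, a desmosomal cadherin, by 0.58 ± 0.08. The medians were -0.01 and 0.06, against -0.01 and -0.03 for all genes. ETV1 knockdown lowered 1 of 13 in each condition (2.5% of all genes fell with DHT and 2.97% with EtOH), VIM, the mesenchymal filament protein vimentin, by 0.48 ± 0.09 with DHT and 0.40 ± 0.09 with EtOH. ERG knockdown raised 2 of 14 with DHT (3.79% of all genes rose), DSP, which links keratins to desmosomes, by 0.29 ± 0.06 and DSC2 by 0.22 ± 0.06, and with EtOH the smallest adjusted p was that of DSC2 (0.21 ± 0.06, adjusted p = 0.054). Of 18 simple-epithelial genes listed 14 were on the array. With DHT 4 of 13 tested rose and 2 fell in LNCaP shControl cells (30.8% and 15.4%), and 3 of 12 rose and 2 fell in VCaP siControl cells (25% and 16.7%), where the shares of all genes were those just given. CLDN8, a claudin of tight junctions, rose by 1.10 ± 0.07 and 0.82 ± 0.06, and OCLN, occludin of the same junctions, fell by 1.66 ± 0.04 and 0.48 ± 0.05. Knockdown of ETV1 raised OCLN by 0.30 ± 0.04 with DHT and by 0.19 ± 0.04 with EtOH, and knockdown of ERG lowered it by 0.34 ± 0.05 and 0.29 ± 0.05.

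Of the transcription factors of the luminal layer, 10 of 12 listed were measured. In LNCaP shControl cells 4 of 9 tested rose with DHT and 3 fell, where 18.6% of all genes rose and 22.3% fell. Among the 3 that fell were ELF3 (-0.76 ± 0.06) and GATA2 (-0.47 ± 0.04). KLF5 rose there by 2.51 ± 0.12, while its change of -0.06 ± 0.07 in VCaP siControl cells did not pass (limma, adjusted p = 0.515). In VCaP siControl cells 4 of 10 rose and the rest did not pass, where 19.6% of all genes rose and 25.4% fell. SPDEF, an ETS factor of secretory epithelia, rose by 2.12 ± 0.06 in LNCaP shControl cells and by 1.10 ± 0.06 in VCaP siControl cells. It fell with ETV1 knockdown by 0.38 ± 0.06 with DHT (limma, adjusted p = 0.00606), and with ERG knockdown by 0.29 ± 0.06 with DHT (adjusted p = 0.0125) and by 0.52 ± 0.06 with EtOH (adjusted p = 4.25e-04). Its change of -0.25 ± 0.06 after ETV1 knockdown with EtOH did not pass (adjusted p = 0.0511). CREB3L4, an androgen-regulated factor of the secretory pathway, rose with DHT by 1.27 ± 0.07 and 0.81 ± 0.05 in the same control cells. It fell after ETV1 knockdown by 0.34 ± 0.07 with DHT, and after ERG knockdown by 0.22 ± 0.05 with DHT and by 0.32 ± 0.05 with EtOH. After ETV1 knockdown with EtOH its change of -0.14 ± 0.07 did not pass (adjusted p = 0.311). ETV1 knockdown lowered 2 of 9 with DHT and 1 of 9 with EtOH, where 2.5% and 2.97% of all genes fell, and ERG knockdown lowered 3 of 10 in each condition, where 5.18% fell with DHT and 5.87% with EtOH.

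Markers of other cells were measured beside these. Of 16 basal genes 10 were on the array and 3 were tested in each line. Their summed intensity was 691 to 746 in shETV1 and 867 to 928 in shControl LNCaP cells with DHT, and 797 to 803 in shETV1 and 936 to 970 in shControl cells with EtOH. In VCaP it was 970 to 1102 in siERG and 1257 to 1363 in siControl cells with DHT, and 1449 to 1644 in siERG and 1855 to 1964 in siControl cells with EtOH. The sum, in which bright genes weigh most, was thus lower in knockdown than in control arrays in every pair of groups. Of the 3 genes tested, ETV1 knockdown lowered 1 in each condition, where 2.5% of all genes fell with DHT and 2.97% with EtOH. ERG knockdown lowered 1 with DHT and 2 with EtOH, where 5.18% and 5.87% fell. CD44 was the second with EtOH (-0.29 ± 0.07), against -0.01 ± 0.07 with DHT. ITGB4, with 0.30 ± 0.23 with DHT and 0.01 ± 0.23 with EtOH, did not pass. After ETV1 knockdown both lay between -0.32 and -0.20 and did not pass. ITGA6, an integrin of the basal layer, was the basal gene that fell in all 4 knockdown comparisons, by 0.39 ± 0.05 and 0.28 ± 0.05 for ETV1 and by 0.41 ± 0.08 and 0.30 ± 0.08 for ERG, with DHT and with EtOH in that order. Of 14 markers of fibroblasts, endothelium and leukocytes 13 were on the array, and 2 to 5 of them lay above the array median on all arrays of a group. None of either list's genes was at 0. Their sum was 726 to 792 in shETV1 and 722 to 778 in shControl LNCaP cells with DHT, 1004 to 1034 and 941 to 1001 with EtOH, 852 to 912 in siERG and 1035 to 1223 in siControl VCaP cells with DHT, and 865 to 959 and 1083 to 1157 with EtOH. COL1A1, a fibroblast collagen, lay at the 70.3rd to 81.5th percentile of the arrays. ERG knockdown lowered 1 of the 8 tested with DHT and 2 with EtOH. It raised 1 in each, where 3.79% of all genes rose with DHT and 5.37% with EtOH. LYZ fell in both (-1.03 ± 0.14 and -1.22 ± 0.14). ETV1 knockdown raised 1 of 9 in each condition, where 2.68% of all genes rose with DHT and 1.22% with EtOH, and lowered 0. With DHT 3 of 9 fell in LNCaP shControl and 2 of 8 in VCaP siControl cells, where 22.3% and 25.4% of all genes fell. VWF fell in both (-1.07 ± 0.09 and -1.01 ± 0.24). The part of these markers in the changes of the luminal genes was not tested.

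The genes whose pattern over the 12 arrays of a line came closest to a member were found by the root mean square difference of centred log2 values, for members whose group means spanned at least 1 log2 unit. In LNCaP the nearest to ACP3 were PAM, an enzyme that amidates secreted peptides (0.11), ODAM (0.13) and GPNMB (0.14). Among the nearest to KRT19 were PRKCA, a protein kinase C (0.08), and STK17B (0.09). KRT8 was nearest to GLB1L2 (0.07), EDEM3 and HMGCS1 (both 0.08), and KRT18 to NANS, TXNDC16 (both 0.05) and SDF2L1 (0.06). AZGP1 was nearest to IGF1, a growth factor (0.13), KLHL29 (0.15) and PCTP (0.16). In VCaP the nearest to TGM4 was SYTL5 (0.16), which differed by -1.06 with DHT and -0.96 with EtOH after ERG knockdown, then AGTR1, an angiotensin receptor, and TMEM45B (both 0.22). KRT18 had RASD1 and its own partner KRT8 (both 0.10) and ROR1 (0.11), and KRT8 had RASD1 (0.06), ISOC2 and SKIL (both 0.07). KRT19 was nearest to ANXA2R, GAS2L1 and DNAJA4 (each 0.07), and AZGP1 to TNFRSF19 (0.18), LIPG (0.19) and ZBED3-AS1 (0.21). These distances describe likeness over arrays of the same groups, and no test was made on them.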

How the data were processed

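Total RNA of 24 cell samples was hybridised to Affymetrix HG-U133 Plus 2.0 arrays. The authors deposited 1 intensity per probe set and array in a series matrix. No source at hand states the software, background correction or scaling behind them, and they were used as deposited, with 0 missing values, on a log2 scale after adding 16. Of 54675 probe sets, 41097 named 1 gene in the platform annotation, 1801 named several and the rest none. Of several probe sets of 1 gene, the brightest by mean log2 value over 24 arrays was taken. The filter on dim genes, the threshold and the numbers of genes tested stand in the report. Changes were fitted with limma 3.58.1 in R 4.3.3, one fit per line with 4 groups, and differences between lines in one fit of 24 arrays. All tests are two-sided. The number of arrays limits the precision.

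The members and gene lists (secretory products, keratin partners, simple epithelium, luminal regulators, basal and non-epithelial markers) were chosen with earlier results of these data known. All members are named. Of each list up to 2 risen and 2 fallen genes with the smallest adjusted p in a comparison were eligible. CREB3L4 was also given where it ranked lower, chosen after its values were seen. Some list genes are also given where they did not pass. Likeness kept 3 genes per member, of which 1 is not reported here. Alternatives were 2 other pseudocounts, the mean of probe sets, no _x_at or _s_at probe sets, 2 other filters, quantile or median scaling, a replicate block, other fits, the GAPDH ratio as a covariate, and leaving out each array. Promoters were matched by symbol for 5 of 8 members. The fits were tested on simulated data.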

Additional observations from a re-analysis of the deposited data

Results flagged for a closer look

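The changes of 5 members with DHT differed between the lines by the test of the difference itself. LNCaP shControl minus VCaP siControl was 1.38 for KRT19 (0.66 to 1.98 over the alternatives), 0.65 for CD24, 0.52 for KRT8, 0.41 for KRT18 and -0.49 for ACP3 on the log2 scale. The knockdown effects, ETV1 in LNCaP minus ERG in VCaP, differed for ACP3 by -0.75 with DHT and by -0.57 with EtOH, for CD24 by -0.32 with DHT and for KRT18 by 0.56 with EtOH. These values are of each gene's brightest probe set, and not all probe sets of ACP3 and CD24 passed for the knockdown differences. Line, targeted gene, kind of RNA interference and array scaling changed together between these arms and cannot be told apart.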

How the results depend on the processing

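Of 88 member changes, 43 passed, and 37 of these passed under every alternative that gave a value. The other 6 were KRT8, AZGP1 (with EtOH and with DHT) after siERG, CD24 after shETV1 with EtOH, and the line differences of CD24 with DHT and KRT18 with EtOH, the last only with the GAPDH ratio as a covariate (adjusted p = 0.0698).

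The count of members called, by comparison, was as follows where it moved. Without _x_at and _s_at probe sets, which removes KRT8, KRT18, CD24 and MSMB from the array, it was 1 and 1 for shETV1 with DHT and with EtOH, 2 for siERG with EtOH, 3 and 3 for DHT in LNCaP, 3 for DHT in siERG cells, 4 for DHT in siControl cells (ACP3 added), 2 for the line difference of DHT, and 1 and 1 for the line differences of knockdown. Without a filter it was 1 for shETV1 with EtOH, 3 and 1 for siERG with EtOH and DHT and 1 for the line difference of knockdown with DHT, and, with all 8 members then tested, 6 for the line difference of DHT and 3 for that of knockdown with EtOH. The GAPDH ratio gave 1 for shETV1 with EtOH, 2 for siERG with EtOH, and 1 and 1 for the line differences of knockdown. Only the groups compared gave 1 for shETV1 with EtOH. The mean of probe sets and quantile scaling gave 4 for the line difference of knockdown with EtOH. The mean of probe sets also gave 7 and 7 for DHT in siControl and siERG cells (ACP3 added), and 4 for shETV1 with DHT and 3 for the line difference of knockdown with DHT (KRT19 added to both). Median scaling and trend and robust variances each gave 4 for shETV1 with DHT (KRT18 added) and 3 for the line difference of knockdown with EtOH (KRT8 added). One fit of 24 arrays added KRT19 (0.21) and MSMB (-0.49) to the calls after siERG with EtOH, for 6 in all, added MSMB with DHT in siControl cells (adjusted p = 0.0364), and gave 1 VCaP interaction (KRT18), and trend and robust variances gave 1 LNCaP interaction (KRT8, adjusted p = 0.0484). Leaving out 1 array gave 1 to 2 and 3 to 4 for shETV1 with EtOH and DHT, 3 to 4 and 1 to 2 for siERG, 6 to 7 for DHT in siControl cells, 0 to 1 VCaP interactions, and 2 to 4 and 1 to 2 for the line differences of knockdown with EtOH and DHT. The added differences with EtOH were KRT8 (without siControl DHT B or C or siERG DHT C), CD24 (without siERG DHT C) and AZGP1 (without shETV1 EtOH C).

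Deviations of same-lettered arrays correlated little, between -0.22 and 0.13 in LNCaP (1 of 18 pairs over 0.1) and between -0.12 and 0.11 in VCaP (2 of 18). Whether samples of the same letter were handled together is not stated. With the replicate block 41 of 43 calls were kept, CD24 after shETV1 with EtOH (adjusted p = 0.0501) and AZGP1 after siERG with DHT (adjusted p = 0.0579) were not, and the member count was 1 in each of these comparisons.

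Signs turned mostly where a change was near 0. With the mean of probe sets, CD24 after siERG with EtOH was 0.02, ACP3 with DHT in siControl cells -0.23, the VCaP interactions of ACP3 and TGM4 0 and -0.1, and KRT19 after shETV1 with EtOH -0.06. Without _x_at and _s_at probe sets ACP3 was -0.2 with DHT in siControl cells and 0.05 for the interaction. Median scaling gave 0.05 for ACP3 with DHT in siERG cells. With the GAPDH ratio CD24 after siERG with EtOH was 0.02, MSMB with DHT in siERG cells 0.15, the VCaP interactions of TGM4 and AZGP1 -0.23 and 0.3, KRT18 after shETV1 with EtOH -0.07, KRT19 with DHT 0, the LNCaP interaction of AZGP1 -0.03, and the line difference of knockdown with DHT for KRT18 0. Leaving out 1 array gave -0.06 to 0 for CD24 after siERG with EtOH, -0.11 to 0.01 and -0.05 to 0.15 for the VCaP interactions of KRT19 and TGM4, -0.03 to 0.07 for KRT18 and -0.03 to 0.02 for KRT19 after shETV1 with EtOH and DHT, -0.02 to 0.2 for the LNCaP interaction of AZGP1, and -0.13 to 0.01 for the line difference of KRT18 with DHT. The causes were not tested. Called values moved by over 1.5 times for KRT19 and TGM4 with the mean of probe sets, for KRT19 with a pseudocount of 64, and for AZGP1 after siERG with the GAPDH ratio, as given with each gene.

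Counts of all genes called varied more. After siERG they were 1444 with EtOH (275 to 1961 over the alternatives) and 1152 with DHT (286 to 1578), after shETV1 538 (142 to 721) and 665 (269 to 849), for the interactions 37 in VCaP (0 to 96) and 13 in LNCaP (1 to 39), for DHT in siERG cells 5814 (2563 to 6111) and for the line difference of knockdown with EtOH 1176 (286 to 1478). The lowest counts after siERG and after shETV1 with EtOH came with the GAPDH ratio.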
